A study of Mus musculus with 6 samples.

Results

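Major histocompatibility complex (MHC) class II presentation genes were followed in pancreatic islets of mice that carry human islet amyloid polypeptide and of wild-type mice. The genes were Cd74, H2-Aa, H2-Ab1, H2-Eb1, H2-DMa, H2-DMb1, H2-Oa, H2-Ob and Ciita, and every probe set annotated to 1 of these symbols alone was taken. This gave 16 of the 45037 probe sets tested and 8 of the 9 genes, out of 18193 genes with a probe set of their own. H2-DMb1 had none of its own, because both of its probe sets are also annotated to H2-DMb2. The group was put together with the lower values of Cd74, H2-Aa, H2-Ab1 and H2-Eb1 in transgenic islets already known. Its differences between genotypes are therefore given as a description and not as a test.

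The islets came from 6 mice, 1 array each: 3 wild type (replicates 1 to 3) and 3 hIAPP-Tg (replicates 4 to 6). Both groups are labelled FVB/N-Tg(Ins2-IAPP)RFHSoel/J, and the genotype given in the labels separates them. All mice were 12 weeks old on standard chow per the sample labels, while the design text gives 10 to 12 weeks. In the transgenic line an insulin promoter drives human IAPP, so the transgene is aimed at beta cells, and the labels do not say whether the wild-type mice were littermates. Whole islets were used, which hold resident immune and vascular cells beside the hormone cells. The labelled tissue was borne out by its hormone genes: Ins2 was at 15.1 on every array, and Gcg, Sst, Ppy and Iapp were at 14 to 15 on all arrays.

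Class II molecules display peptides from engulfed or internalised protein to CD4+ T cells. An alpha and a beta chain (H2-Aa with H2-Ab1 for the A molecule, H2-Eb1 as the beta chain of the E molecule) assemble in the endoplasmic reticulum around the invariant chain, Cd74, which fills the groove and steers the complex to late endosomes. Proteases such as cathepsin S trim Cd74 there, and the H2-DM dimer swaps its last fragment for a peptide while the H2-O dimer restrains H2-DM. Transcription of these genes depends on the coactivator Ciita, which binds no DNA itself and docks on factors at the X and Y boxes of their promoters. Dendritic cells, B cells and activated macrophages are the main cells that express them, and in the healthy islet a small population of resident macrophages does.

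The promoters are shown because the X and Y boxes are known as elements shared by class II promoters. The RefSeq table (build GRCm38.p6, of C57BL/6J, not of the FVB/N strain of the labels) held 7 start sites of 6 of the 9 genes. H2-Ab1, Cd74 and Ciita are not printed here. Searched on both strands were GATTGG, the core of the Y box and the inverse of a CCAAT box, and AGCAAC and CAACAG, 2 overlapping parts of the X box. In capitals below are GATTGG and AGCAAC on either strand, in the 120 bases before the start site, read 5′ to 3′. The stretches are chr17:34287824-34287943 on the minus strand for H2-Aa, chr17:34305747-34305866 for H2-Eb1, chr17:34238785-34238904 for H2-Ob, chr17:34092259-34092378 for H2-Oa and chr17:34153071-34153190 for H2-DMb1, the last 4 on the plus strand.
H2-Aa: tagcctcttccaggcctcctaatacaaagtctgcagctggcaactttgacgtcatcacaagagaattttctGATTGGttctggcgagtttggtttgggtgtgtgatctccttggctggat
H2-Eb1: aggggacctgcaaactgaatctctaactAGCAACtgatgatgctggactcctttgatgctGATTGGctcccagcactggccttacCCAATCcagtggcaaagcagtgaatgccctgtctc
H2-Ob: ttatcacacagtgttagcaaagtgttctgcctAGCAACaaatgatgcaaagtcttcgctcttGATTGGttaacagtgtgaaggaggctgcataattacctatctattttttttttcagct
H2-Oa: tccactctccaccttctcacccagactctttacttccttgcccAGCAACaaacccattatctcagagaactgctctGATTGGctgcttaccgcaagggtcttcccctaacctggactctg
H2-DMb1: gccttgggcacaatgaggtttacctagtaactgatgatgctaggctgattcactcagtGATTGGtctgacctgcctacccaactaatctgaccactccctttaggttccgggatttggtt

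These 5 stretches were printed because they hold GATTGG on the printed strand, so its presence in all 5 describes that choice. The first base of GATTGG lay 49 bases before the start in H2-Aa, 60 in H2-Eb1, 58 in H2-Ob, 44 in H2-Oa and 62 in H2-DMb1. H2-Eb1 held a further copy on the opposite strand, 35 bases before the start. Of the 32851 RefSeq windows of 300 bases, 16.1% held GATTGG on either strand, and 1.88% held it on the printed strand with its first base 40 to 70 bases before the start, a band chosen after the members had been seen. AGCAAC preceded GATTGG in H2-Ob, H2-Oa and H2-Eb1, with 30, 33 and 32 bases from first base to first base. It was in 14.8% of all windows, and CAACAG, which among the members was found only in H2-Ob, was in 16.2%. AGCAAC 70 to 100 bases before the start together with GATTGG in its band was found in 7 windows of all genes, 3 of them those of these members. The AGCAAC band takes in the members' own copies, at 77 bases in H2-Oa, 88 in H2-Ob and 92 in H2-Eb1. With the GATTGG band chosen after the members had been seen, this count is a description and no independent support. Of the 2 H2-DMa start sites, one window held no match to the 3 motifs and the other held GATTGG 199 bases before the start. A match describes letters in the window and is no measured binding.

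Cd74, H2-Aa, H2-Ab1 and H2-Eb1, the genes of the peptide-binding chains and their chaperone, were lower in hIAPP-Tg islets on their brightest probe sets, with no overlap between the arrays of the genotypes. All values are log2 values after the authors' RMA normalization, in which a step of 1 is a doubling, and differences are hIAPP-Tg minus wild type with the standard error (SE) from limma. None of them passed an adjusted p of 0.05 (limma, Benjamini-Hochberg over the 45037 probe sets). The arrays of the genotypes overlapped for H2-DMa, which edits the bound peptide, for H2-Oa and H2-Ob, which restrain the editor, and for Ciita.

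H2-Aa encodes the alpha chain of the A molecule. Its brightest probe set (1452431_s_at) read 10.3, 10.0 and 9.8 in wild-type and 9.5, 9.4 and 9.5 in hIAPP-Tg islets, a difference of -0.57 (SE 0.13). The transgenic arrays lay within 0.1 of each other, and each was below the lowest wild-type array. A second probe set (1435290_x_at) read 10.2, 10.0 and 9.7 against 9.1, 8.9 and 9.0, a difference of -0.97 (SE 0.13), or 1.95-fold lower. This was the largest difference among the 16 probe sets. A further one (1438858_x_at) read 8.4, 8.1 and 8.4 against 8.1, 7.9 and 8.0, where the genotypes met at 8.1 and differed by -0.30 (SE 0.10). The last H2-Aa probe set (1443783_x_at) stood at 3.3 or 3.4 on all arrays, near the bottom of the scale, where a lower level could be hidden. The suffix x marks probe sets with probes that also match other sequences, and the suffix s those that match transcripts of more than 1 gene, so the sizes need not be of H2-Aa alone.

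H2-Ab1, the beta chain that pairs with H2-Aa, gave like differences. On its brightest probe set (1450648_s_at) it read 9.8, 9.6 and 9.4 in wild-type and 8.9, 9.1 and 9.0 in hIAPP-Tg islets, a difference of -0.60 (SE 0.11). No transgenic array reached the lowest wild-type array. Its x probe set (1425477_x_at) read 8.8, 8.3 and 8.3 against 7.8, 7.9 and 7.9, again -0.60 (SE 0.14). The remaining one (1451721_a_at) read 9.1, 8.7 and 8.8 against 8.7, 8.4 and 8.4, a difference of -0.37 (SE 0.13). Here the brightest transgenic array reached the lowest wild-type array.

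Cd74, the invariant chain, had 1 probe set. It read 8.5, 8.2 and 8.0 in wild-type and 7.6, 7.8 and 7.9 in hIAPP-Tg islets, a difference of -0.47 (SE 0.14), or 1.38-fold lower. The nearest arrays of the genotypes were 0.1 apart, which is the rounding step of the deposited values. H2-Eb1, the beta chain of the E molecule, read 6.4, 6.4 and 6.3 against 5.9, 6.1 and 6.2, a difference of -0.30 (SE 0.090). It too was separated by a single rounding step, at values not far above the array median of 5.7.

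**Figure D1:**
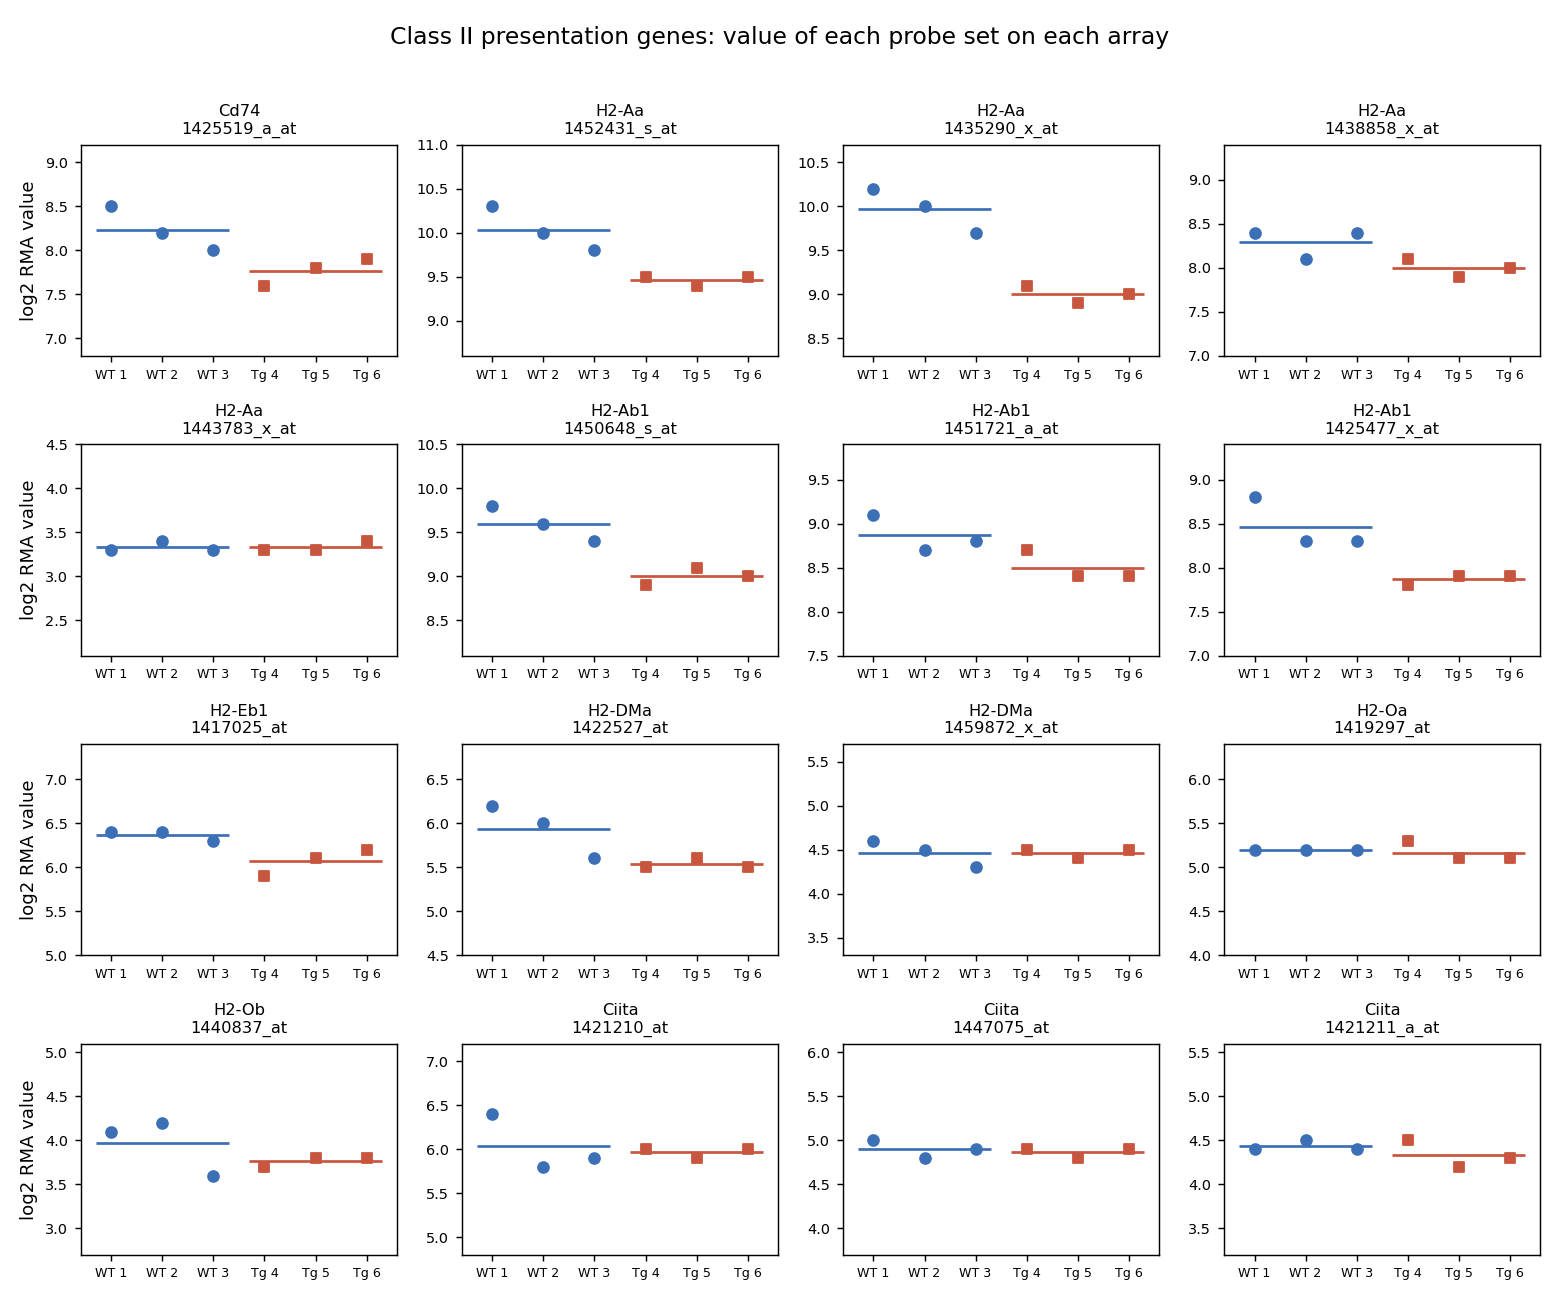
Log2 RMA value (vertical axis, with the same span in every panel) of each of the 16 probe sets on each of the 6 arrays, wild type (WT) as blue circles and hIAPP-Tg (Tg) as red squares, with group means as lines. The brighter probe sets of Cd74, H2-Aa and H2-Ab1 and that of H2-Eb1 sit lower on the hIAPP-Tg arrays, while those of H2-Oa, H2-Ob and Ciita overlap.

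H2-DMa, the alpha chain of the peptide editor, was at 6.2, 6.0 and 5.6 in wild-type and 5.5, 5.6 and 5.5 in hIAPP-Tg islets (difference -0.40, SE 0.15). Wild-type replicate 3 was level with the transgenic arrays, and all values lay near the array median. Its x probe set was at 4.3 to 4.6 on all arrays and differed by 0. For the partner chain, a probe set shared by H2-DMb1 and H2-DMb2 (1449580_s_at) read 6.5, 6.1 and 6.1 against 6.2, 5.9 and 5.8, a difference of -0.27 (SE 0.15) with overlapping groups. The other shared one (1418638_at) was at 4.4 to 4.6 on all arrays. Neither can be credited to H2-DMb1.

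The H2-O chains, which are typical of B cells, lay under the array median, and the deposited table gives no detection call to place them above background. H2-Oa read 5.2 in all 3 wild-type islets and 5.3, 5.1 and 5.1 in hIAPP-Tg islets (difference -0.033, SE 0.073). H2-Ob read 4.1, 4.2 and 3.6 against 3.7, 3.8 and 3.8 (difference -0.20, SE 0.16). Single arrays moved the H2-Ob value, which was -0.383 without wild-type replicate 3, -0.133 without wild-type replicate 1 and -0.083 without wild-type replicate 2. A probe set annotated to both H2-Ob and Gm20506 was at 5.0 to 5.3 in all islets. A lower level in 1 genotype could be hidden so near the bottom of the scale.

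Ciita, the coactivator on which the class II promoters depend, overlapped between genotypes on all 3 probe sets. The brightest (1421210_at) read 6.4, 5.8 and 5.9 in wild-type and 6.0, 5.9 and 6.0 in hIAPP-Tg islets, a difference of -0.067 (SE 0.16). Only wild-type replicate 1 stood apart, and without it the difference was 0.117. The others, at 4.2 to 5.0, differed by -0.033 and -0.10. These 2 lay under the array median. The brightest lay above it on every array, and its difference was smaller than its SE.

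Counted together, 14 of the 16 probe sets lay below 0, 2 at 0 and none above, with a median of -0.30, while the median of all probe sets tested was 0 and 43.6% of them lay below 0. With the brightest probe set standing for its gene, all 8 genes lay below 0 (median -0.35). The arrays of the genotypes did not overlap, with hIAPP-Tg lower, for 6 of the 16, all of them of the first 4 genes, while 3.22% of all probe sets did so. An unadjusted limma p under 0.05 with the lower value in hIAPP-Tg was reached by 9 of the 16, against 3.51% of all. After adjustment 0 of the 16 passed with limma, against 0.0289% of all probe sets in either direction and 0.00222% in the lower one. Since the genes were chosen on this contrast, these counts describe the choice. The smallest adjusted p was 0.194 in limma, for the H2-Aa probe set that differed by -0.97.

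**Figure D2:**
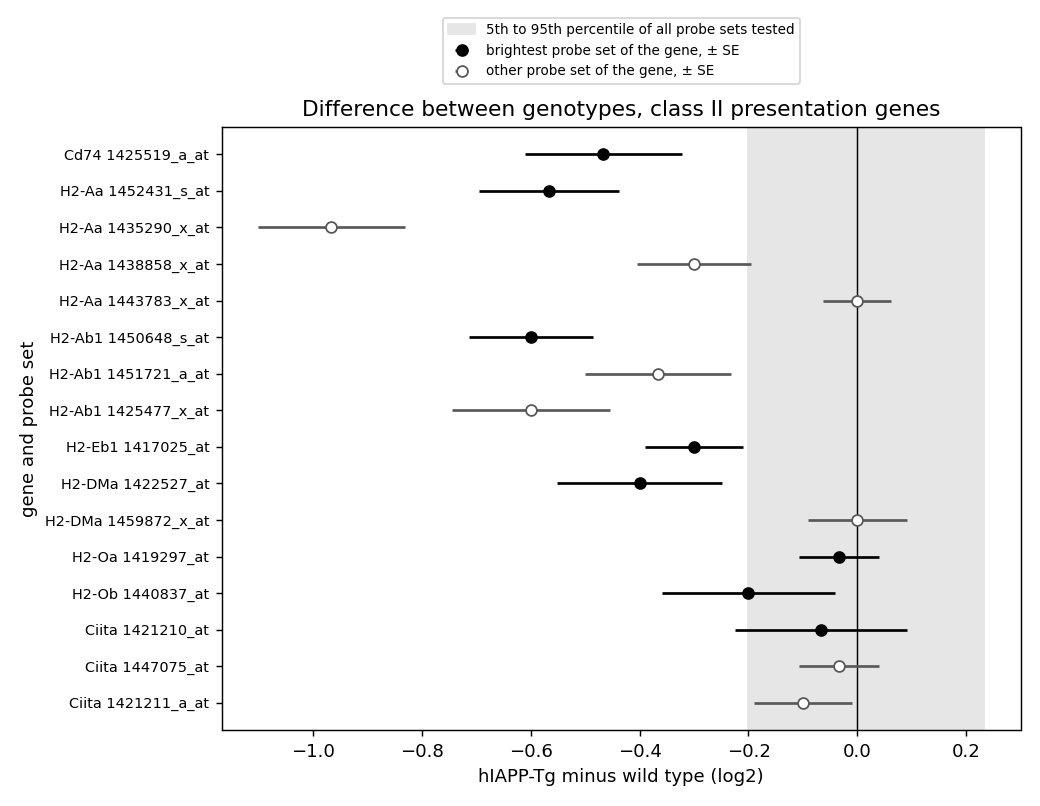
Difference between genotypes (horizontal axis, hIAPP-Tg minus wild type, log2) of each probe set with its SE from limma, filled for the brightest probe set of a gene and open for the others; the grey band spans -0.20 to 0.23, the 5th to 95th percentile of all probe sets tested. Probe sets of H2-Aa range from -0.97 to 0, and those of Ciita and H2-Oa lie inside the band.

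Within the wild-type group the same array was the highest for Cd74, H2-Aa, H2-Ab1 and H2-DMa, namely replicate 1, which also tied for the highest in H2-Eb1. The mean of Cd74, H2-Aa, H2-Ab1 and H2-Eb1, each centred on its own mean, was 0.43, 0.23 and 0.058 in wild-type replicates 1, 2 and 3 and -0.34, -0.22 and -0.17 in hIAPP-Tg replicates 4, 5 and 6. This mean spanned a wider range among the wild-type than among the transgenic mice, while H2-Eb1 by itself did the reverse (SD 0.058 against 0.15). Without wild-type replicate 1 their median difference went from -0.52 to -0.38, and without replicate 3 to -0.63.

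Genes of the compartment in which class II is loaded showed the opposite sign. Of 15 listed, 14 were measured, 12 lay above 0 and 1 below, with a median of 0.38. None passed the adjusted threshold in limma, and 10 were higher at an unadjusted p under 0.05, against 3.82% of all probe sets. Ctss, the cathepsin that makes the last cuts in Cd74, read 10.3, 10.1 and 10.0 in wild-type and 11.0, 11.4 and 11.4 in hIAPP-Tg islets (difference 1.13, SE 0.14). Ctsh, an aminopeptidase of the same compartment, read 6.5, 6.2 and 6.7 against 7.1, 7.0 and 7.3 (difference 0.67, SE 0.14). Both were higher on each transgenic array than on any wild-type array. Ifi30, the thiol reductase that opens disulfides of antigens, was higher by 0.37 and Lgmn, which starts the breakdown of Cd74, by 0.53. Sppl2a, which removes the membrane stub of Cd74, differed by -0.10, and Marchf1, the ligase that clears class II from the surface, by 0 at a level under the array median. These 4 were named after their values had been seen.

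Genes that act upstream gave differences near 0. The DNA-binding partners and cofactors of Ciita (10 of 10 measured) had a median of 0, with 0 past the adjusted threshold and 0 at an unadjusted p under 0.05 in limma. Rfx5, Rfxank and Rfxap, which bind the X box, differed by -0.067, 0 and 0.033. Nfya, Nfyb and Nfyc, which bind the Y box that GATTGG marks in the promoters printed above, differed by 0.033, 0.067 and 0. The interferon-gamma route that induces Ciita (9 of 10 measured) also had a median of 0, with 0 past either threshold. Its receptor chains Ifngr1 and Ifngr2 differed by 0.067 and 0.20, and Irf1 by 0.10.

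Partners on the cell surface were counted next. Of the 7 genes for proteins that bind Cd74 or class II, 4 lay above 0 and 3 below (median 0.27). After adjustment 0 passed, and 3 were higher at an unadjusted p under 0.05 in limma, against 3.82% of all probe sets. Cd44, the signalling partner of Cd74, read 7.0, 7.3 and 7.1 against 7.5, 7.7 and 7.4 (difference 0.40, SE 0.11). Mif, the cytokine that binds Cd74, read 10.8, 10.9 and 10.5 against 10.9, 11.2 and 11.1 (difference 0.33, SE 0.13) and overlapped at 10.9. The 11 costimulatory genes had a median of 0 and 0 past either threshold, with Cd80 at -0.13, Cd86 at 0.10 and Cd40 at 0. Of the 11, 8 had a mean under the array median, Cd80 and Cd86 among them, where a lower level could be hidden.

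The H2 members lie near each other on chromosome 17, and most of the other genes between them lay above 0. Between H2-Oa and H2-Eb1 the RefSeq order holds 14 genes, 7 of them not among the members, and 6 of these 7 were measured. They differed by -0.27 to 0.40, 5 above 0 and 1 below, while 43.6% of all probe sets lay below 0. Of the 5, Brd2 and H2-DMb2 were at 0.067, within their SE of 0.33 and 0.078. None was without overlap in the lower direction, where 3.22% of all probe sets were, so none among 6 says little. Psmb8 and Psmb9, immunoproteasome subunits of the class I route, differed by 0.40 and 0.20. Tap1, a chain of the peptide transporter for class I, was the exception at -0.27 (SE 0.098), with 7.2, 7.1 and 7.2 against 6.8, 6.8 and 7.1, while its partner Tap2 differed by 0.20. Further class II genes of the region, H2-Ea, H2-Eb2 and H2-DMb2, differed by -0.067, -0.17 and 0.067, and the list of other region genes (5 of 7 measured) had a median of -0.067, with 0 past either threshold. The wider class I list (14 of 18 measured) had a median of 0.20, with 0 past the adjusted threshold. Only 1, Tap1, was lower at an unadjusted p under 0.05 in limma, against 3.51% of all probe sets.

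**Figure D3:**
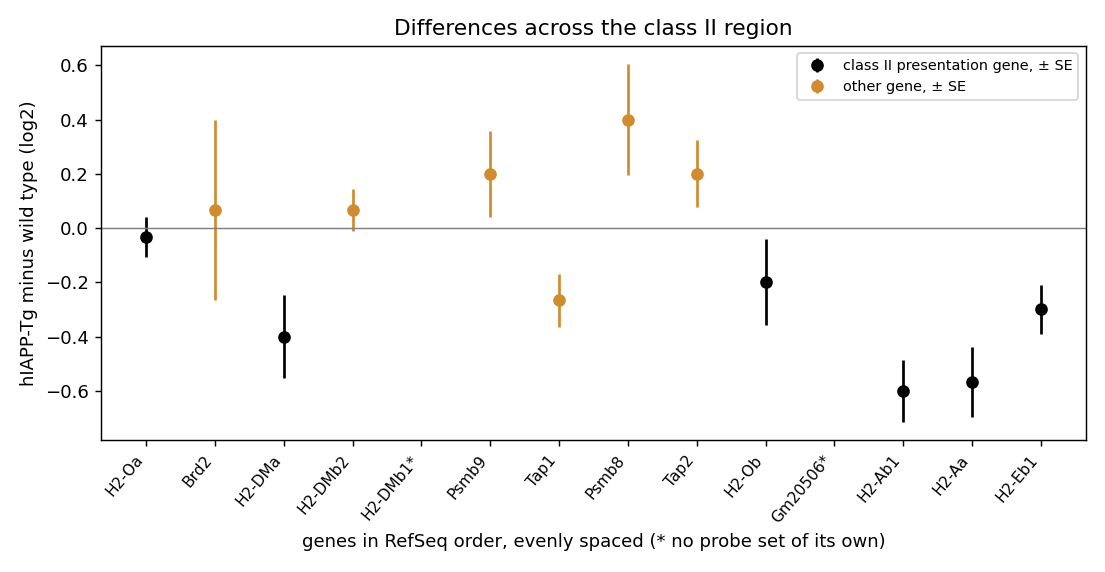
Difference between genotypes (vertical axis, hIAPP-Tg minus wild type, log2, with SE from limma) for the genes between H2-Oa and H2-Eb1 in RefSeq order (horizontal axis, evenly spaced), class II presentation genes in black and other genes in orange. Members lie at -0.60 to -0.033 and the 6 other measured genes at -0.27 to 0.40.

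The cells that carry class II differed in how their other markers behaved. In whole islets fewer cells of a type and less RNA per cell cannot be told apart. Of 20 macrophage markers 19 were measured, 17 lay above 0 and 2 below, with a median of 0.67; Mpeg1 and Tyrobp rose past the adjusted threshold in limma (adjusted p = 0.00683 and 0.0271), where 0.0289% of all probe sets did in either direction. At an unadjusted p under 0.05, 13 were higher, against 3.82% of all. Mpeg1, a pore-forming protein of macrophages, read 7.4, 7.3 and 7.4 against 9.0, 8.8 and 9.0. The list mean lay between 6.37 and 6.51 in wild-type islets and between 7.22 and 7.32 in hIAPP-Tg islets. Lyz2, a lysozyme whose probes may also read Lyz1, was higher by 2.47 and the phagosomal marker Cd68, at 5.1 on every wild-type array, by 1.90, neither past the adjusted threshold. Csf1r, the receptor on which macrophages depend, was higher by 0.67 and Adgre1 by 1.13, while Mrc1, Cd163 and Itgam lay under the array median on all arrays. Maf and Cd14 lay above that median on all arrays, and overlapped between genotypes with differences of -0.033 and 0.067. The macrophage markers that rose and the class II chains therefore differed in opposite directions on the same arrays. Whether the macrophage signal has a part in the class II values was not tested.

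Dendritic cell markers (15 of 16 measured) had a median of 0, with list means between 5.83 and 5.87 in wild-type and between 5.82 and 5.92 in hIAPP-Tg islets. Flt3 (5.2 to 5.4), Xcr1 and Ccr7 lay under the array median on all arrays, and Zbtb46 and Cd209a differed by 0 and -0.20. Itgax, which macrophages of the islet also make, read 6.1, 6.0 and 5.8 against 6.3, 6.4 and 6.6 (difference 0.47, SE 0.11). It was the list's only gene with an unadjusted limma p under 0.05, where 3.82% of all probe sets were higher at that bound. B cell markers (13 of 16 measured) had a median of -0.033, and their list means were 5.42 to 5.52 and 5.46 to 5.55. Ms4a1, Cd79b and Cr2 lay under the array median, and Blnk, an adaptor that macrophages also use, differed by 0.63 (SE 0.090). T and NK cell markers (14 of 16) had a median of 0 and list means of 4.75 to 4.76 and 4.74 to 4.78. Of these 14, 12 had a mean under the array median, where a lower level could be hidden. So had 9 of the 15 dendritic and 8 of the 13 B cell markers. Cd3e stood at 6.2 to 6.5 and Cd3d at 5.0 to 5.1 on all arrays.

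**Figure D4:**
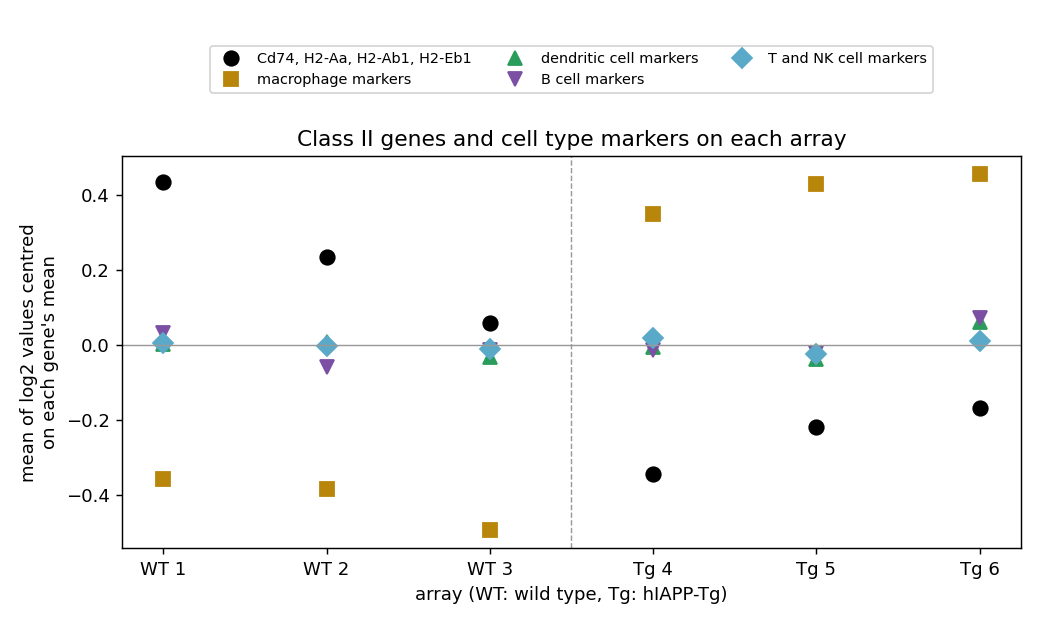
Mean of log2 values centred on each gene's mean (vertical axis) on each array (horizontal axis) for Cd74, H2-Aa, H2-Ab1 and H2-Eb1 and for 4 marker lists. The class II genes run from 0.058 to 0.43 in wild-type islets and from -0.34 to -0.17 in hIAPP-Tg islets, the macrophage markers from -0.49 to -0.36 and from 0.35 to 0.45.

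Other cell types that an islet preparation can hold gave these values. Plasma cell markers (8 of 8) had a median of -0.067 and means between 5.58 and 5.61 in wild-type and between 5.38 and 5.55 in hIAPP-Tg islets, with Prdm1 lower by 0.37 (unadjusted limma p under 0.05). Endothelial markers (14 of 14) had a median of -0.067 and means of 7.47 to 7.61 and 7.42 to 7.56, with 4 (Tek, Egfl7, Pecam1 and Emcn) lower at an unadjusted p under 0.05 in limma, against 3.51% of all probe sets. Tek, at 7.2, 7.0 and 6.9 against 6.7 on each hIAPP-Tg array, differed by -0.33 and Egfl7 by -0.30. Both were without overlap, as were 3.22% of all probe sets in the lower direction, and Emcn differed by -0.37. Of the 14 endothelial markers 7 lay below 0, 4 above and 3 at 0. Kdr, Esam and Plvap differed by 0, Flt1 by 0.27 and Lyve1 by 0.70, the last 2 with overlap. Acinar markers (13 of 16) had a median of -0.93, and their means overlapped, at 10.5 to 11.9 and 9.48 to 11.4, with Reg1 at -1.10. None of these passed the adjusted threshold, and their part in the class II values was not tested. Centred on each gene's mean, the class II genes fell across wild-type replicates 1 to 3 (0.43, 0.23 and 0.058). The acinar markers rose across the same arrays (-0.43, 0.68 and 0.96). In hIAPP-Tg replicates 4, 5 and 6 the class II genes stood at -0.34, -0.22 and -0.17. The acinar markers stood at 0.47, -1.42 and -0.26 there. Whether the acinar and class II values are tied was not tested.

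Genes with the most similar pattern over the 6 arrays were sought among 5837 probe sets with a mean of at least 6 and a range of at least 0.5. Pearson's r with the mean of Cd74, H2-Aa, H2-Ab1 and H2-Eb1 ran from 0.960 to 0.993 in the 10 closest genes, which is a description over 6 arrays that share the genotype difference. In order they were Atp2a2, which pumps calcium into the endoplasmic reticulum, Itm2a, Tek, the angiopoietin receptor of endothelium, Gtf3c2, Dbi, Tenm2, Lgalsl, Itih5, Crtc3 and Magi3. No immune cell marker of the lists above was among them, but many of those markers could not enter the search. A mean under the array median, and so under 6, was held by 9 of the 15 dendritic cell markers measured. The same held for 8 of the 13 B cell and 12 of the 14 T and NK cell markers. Their absence was thus in part fixed by the bounds. The Atp2a2 probe set read 9.9, 9.8 and 9.6 against 9.2, 9.3 and 9.4, and that of Itm2a, a membrane protein, 7.3, 7.0 and 6.8 against 6.3, 6.3 and 6.4. Of the 9 genes with more than 1 probe set, r was over 0.9 on all of them for Itm2a and Lgalsl alone. For 5 genes it was over 0.9 on only 1, so most of these likenesses were not shared by every probe set of the gene. The other probe sets were not held to the bounds on mean and range, so a dim one could give a low r.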

How the data were processed

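RNA of islets from 6 mice was hybridised to Affymetrix mouse arrays (150 ng of total RNA per the labels' protocols). The deposited table holds log2 values which the authors obtained by RMA with affy, per the submitters' processing notes, whose versions the sources used here do not give. Values ran from 2.9 to 15.1 in steps of 0.1, with a median of 5.7 on every array. RMA compresses differences near the floor. Precision is limited by the number of arrays. The labels call each sample a separate mouse.

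Control probe sets were left out. Genes were named from the platform annotation, of which 34945 probe sets had 1 symbol, 932 several and 9160 none here; a lookup in RefSeq GRCm38.p6 by Entrez number changed 0 symbols. Each probe set was tested with lmFit and eBayes of limma 3.58.1 (R 4.3.3) without covariates, two-sided, at a Benjamini-Hochberg threshold of 0.05, after the script was tested on simulated data. The brightest probe set stood for a gene in lists. The members and lists were chosen with earlier results of these data known. All member probe sets were named; from each list, genes past the threshold and up to 2 a direction at an unadjusted p under 0.05 with the largest difference, plus defining markers and the 10 closest patterns. Further list genes with values in the text were chosen after their values were seen. Irf4, Irf8 and Cd4 each count in more than 1 list. Listed genes without a probe set of their own were not analysed here. Alternatives were 2 filters on dim probe sets, median centring, quantile normalization, an intensity trend, a robust prior, array weights, averaged probe sets, the probe set with the largest spread, and leaving out each array. Python 3.11.15 with matplotlib 3.10.9 drew the figures.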

Additional observations from a re-analysis of the deposited data

How the results depend on the processing

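With all arrays and all 4 genes kept, the median difference of Cd74, H2-Aa, H2-Ab1 and H2-Eb1 was -0.556 to -0.392 over the alternatives. It was -0.633 to -0.383 when each array was left out in turn. That of all 8 genes was -0.475 to -0.275 when each array was left out. With a mean of at least 7 required, 3 members remained (Cd74, H2-Aa and H2-Ab1), and the median of those members was -0.567 because fewer genes were counted. With the probe set of largest spread, H2-Aa differed by -0.967. Ciita was 0.117 without wild_type replicate 1 and 0.009 with array weights. No member passed the adjusted threshold in the alternatives with a test, whether all arrays or 5 were used. The number of probe sets past the threshold over the whole table, 13, was 30 with quantile normalization, 51 with a robust prior and 26 with array weights; the cause was not tested. It was 1 to 4 when an array was left out, namely 1 without any one of wild_type replicates 1, 2 and 3, 2 without hIAPP_Tg replicate 4 and 4 without replicate 5 or 6, with fewer arrays in the fit. No paired analysis was possible because the replicate numbers of the genotypes do not overlap. Signal limits H2-Oa, H2-Ob and 2 of the 3 Ciita probe sets, which lay under the array median with no detection call in the deposited table.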
